A study of Mus musculus with 6 samples.

Results

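A set of 10 genes of the cornified envelope were followed in newborn mouse epidermis with and without Znf750: the scaffold and associated proteins Ivl, Evpl, Ppl, Scel, Cnfn, Cst6 and Cdsn, and the transglutaminases Tgm1, Tgm3 and Tgm5. They were chosen by symbol, with earlier results of these data known, and all 10 were found among the 55487 Ensembl genes of the files. The study compared 3 libraries labelled Control with 3 labelled Znf750 cKO, all from the back-skin epidermis of pups at postnatal day 0, dissociated to single cells without a named sort. The labels used here name no Cre line, allele or strain and do not say what genotype the Control pups carried, and they do not say whether each library came from its own animal, so p-values measure the spread between these libraries only. Levels are FPKM, fragments scaled by transcript length and library size, which can be compared between genes.

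The cornified envelope is the insoluble protein shell that replaces the plasma membrane of keratinocytes as they become the dead cells of the skin surface. Involucrin, envoplakin and periplakin are laid down early beneath the membrane, and transglutaminases then join them and later precursors such as loricrin by bonds between glutamine and lysine residues. Corneodesmosin, outside the cell, holds the finished corneocytes together until proteases shed them. Znf750 (mouse symbol Zfp750) encodes a DNA-binding protein with a zinc finger that acts in keratinocytes as they differentiate.

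Values are given in the order of replicates 1, 2 and 3. Zfp750 itself, the targeted gene, had Control levels of 44.8, 32.0 and 34.9 FPKM against 0.99, 0.83 and 1.47 FPKM in Znf750 cKO, so each library matched its label. Depth, estimated from the steps that whole reads leave in FPKM values, was between 21.7 and 35.4 megareads per library. For the members with a single annotated transcript this corresponds to about 1625 to 11744 reads for Ivl, 8144 to 17187 for Evpl, 3478 to 10310 for Cdsn and 1032 to 2682 for Tgm3 in a library. Keratinocyte markers were abundant in every library, and the summed levels of 5 suprabasal markers overlapped between groups (19383 to 30322 FPKM in Control, 23036 to 33578 FPKM in Znf750 cKO). The sums of 5 basal markers did not overlap, at 11856 to 13173 FPKM in Control and 13650 to 15217 FPKM in Znf750 cKO. All 5 basal log2 changes were above 0 and none passed by limma, while 3 had an unadjusted p under 0.05, against 21.3% of all genes tested. Itga6 and Col17a1 passed with the replicate number as a block (limma adjusted p = 0.044 and 0.048), against 2.86% of all genes. Of 12 leukocyte markers, 9 were tested and all 9 fell, with sums of 138 to 225 FPKM in Control and 19.4 to 26.2 FPKM in Znf750 cKO, and the Langerhans cell gene Cd207 was near 0 in each library. Of 4 endothelial genes, Cdh5, Kdr and Emcn were also near 0. Pecam1 was not, at 9.34, 13.9 and 25.1 FPKM in Control and 12.9, 5.46 and 31.1 FPKM in Znf750 cKO, and did not pass. None of 7 melanocyte or 4 tested fibroblast markers passed. Of 6 granular layer markers 1 fell, Casp14, against 3.10% of all genes tested. Their sums did not overlap, at 6593 to 11397 FPKM in Control and 5159 to 6407 FPKM in Znf750 cKO. Log2 changes were below 0 for 5 of the 6 and above 0 for Hrnr. An unadjusted p under 0.05 by limma was found for 4, Hrnr among them, against 21.3% of all genes. Groups were lower without overlap for 3, against 19.7%. The part of cell makeup in the members' differences was not tested.

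Differences between groups were tested with limma on log2(FPKM + 1) over the 13688 genes with at least 1 FPKM in at least 3 libraries, and a gene is said to have risen or fallen where its Benjamini-Hochberg adjusted p was under 0.05. All 10 members entered the test, with levels between 9.05 and 210 FPKM. Ivl rose and Scel fell, and the other 8 did not pass, against 4.22% of all genes tested that passed, 1.11% upwards and 3.10% downwards. An unadjusted p under 0.05 was found for 4 members, Ivl, Scel, Cdsn and Tgm5, and for 21.3% of all genes. Groups did not overlap for 5 members and for 28.0% of all genes: Ivl was higher in Znf750 cKO, as were 8.28% of all genes, and Scel, Cdsn, Cst6 and Tgm5 were lower, as were 19.7%. With the replicate number as a block in the model, Scel fell and no member rose, against 2.86% of all genes that passed, 0.994% upwards and 1.87% downwards. The median log2 change of the 10 members was -0.11, close to the -0.08 of all genes. In bulk RNA, fewer cells of a kind and less RNA in each cell cannot be told apart, which applies to each difference below.

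**Figure D1:**
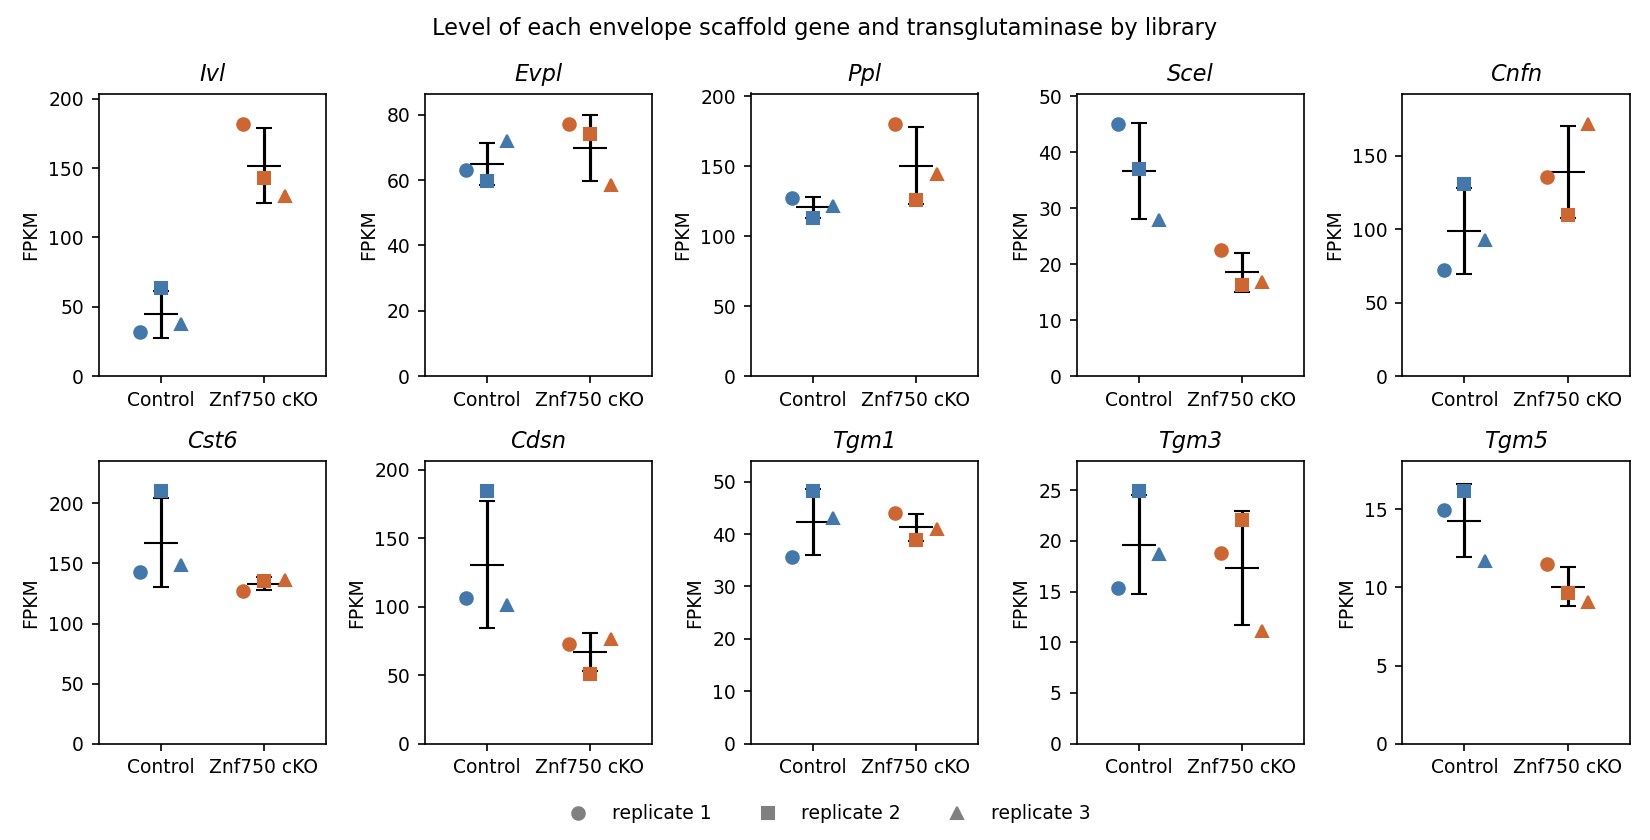
FPKM (linear axes from 0) of the 10 genes in 3 Control and 3 Znf750 cKO libraries. Points are libraries, marked by replicate number, and bars are the mean and SD of 3. Ivl lies between 32.0 and 63.6 FPKM in Control and between 130 and 182 FPKM in Znf750 cKO, Scel, Cdsn, Cst6 and Tgm5 lie lower without overlap, and the other 5 overlap.

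**Figure D2:**
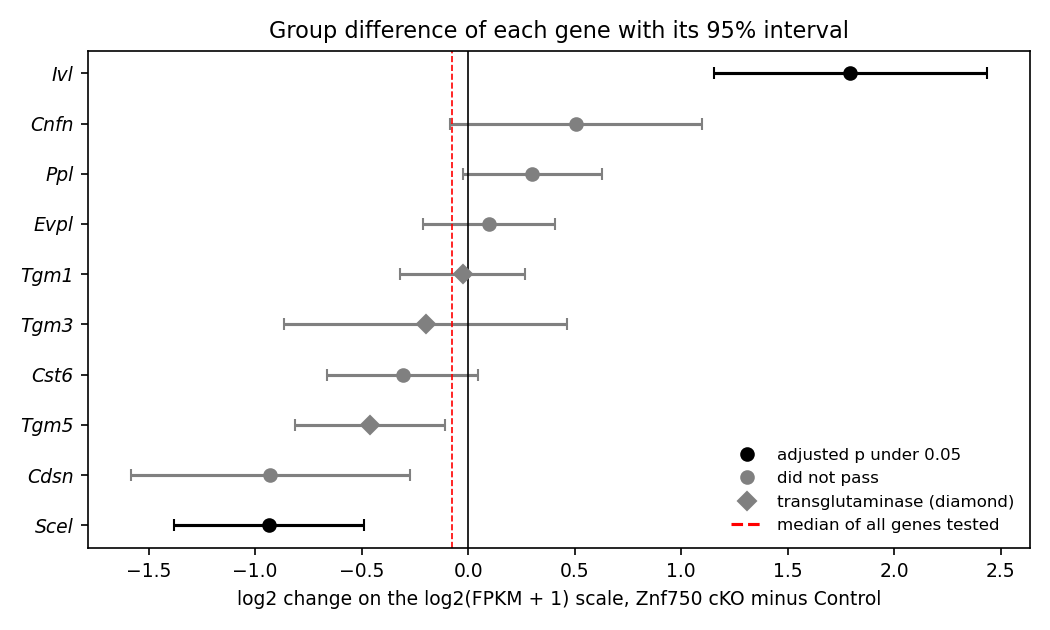
Log2 change (Znf750 cKO minus Control, on log2(FPKM + 1)) of each gene with its 95% interval from limma; black marks an adjusted p under 0.05, diamonds are transglutaminases and the dashed line is the median of all genes tested. Ivl at 1.79 stands alone on the right, Scel and Cdsn share the left end at -0.94 and -0.93, and the interval of Cdsn is the wider.

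The start regions of the members whose levels differed most are shown because the loss of a transcription factor is the variable of the study. The RefSeq table of GRCm38.p6 holds starts for 7 of the 10 members (Ivl, Scel, Cnfn, Cdsn, Tgm1, Tgm3 and Tgm5). The 250 bases before each start are written 5′ to 3′ on the gene's strand, for Ivl at chr3:92573736-92573985 (minus strand), for Scel at chr14:103513091-103513340 (plus strand), and for Cdsn at chr17:35542851-35543100 and chr17:35551878-35552127 (plus strand), of which the last ends at the gene start in GENCODE M21. Capitals mark the letters TGANTCA, bound by AP-1 factors, and CCNNAGGC, a sequence known from sites bound by ZNF750, on either strand.
Ivl: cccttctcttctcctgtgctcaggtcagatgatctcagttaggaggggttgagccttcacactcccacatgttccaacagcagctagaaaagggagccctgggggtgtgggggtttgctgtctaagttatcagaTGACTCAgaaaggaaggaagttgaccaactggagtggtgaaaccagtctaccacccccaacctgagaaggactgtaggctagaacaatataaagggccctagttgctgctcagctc
Scel: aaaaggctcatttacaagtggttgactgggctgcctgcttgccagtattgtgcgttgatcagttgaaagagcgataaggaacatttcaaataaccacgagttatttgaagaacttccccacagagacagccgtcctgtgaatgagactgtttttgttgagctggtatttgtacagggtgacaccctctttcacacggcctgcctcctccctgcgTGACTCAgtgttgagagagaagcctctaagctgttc
Cdsn upstream start: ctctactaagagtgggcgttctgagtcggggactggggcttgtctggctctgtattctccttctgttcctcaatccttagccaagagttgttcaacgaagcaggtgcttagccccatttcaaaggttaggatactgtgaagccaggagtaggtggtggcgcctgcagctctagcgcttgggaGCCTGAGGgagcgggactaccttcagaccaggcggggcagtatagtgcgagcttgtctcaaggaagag
Cdsn downstream start: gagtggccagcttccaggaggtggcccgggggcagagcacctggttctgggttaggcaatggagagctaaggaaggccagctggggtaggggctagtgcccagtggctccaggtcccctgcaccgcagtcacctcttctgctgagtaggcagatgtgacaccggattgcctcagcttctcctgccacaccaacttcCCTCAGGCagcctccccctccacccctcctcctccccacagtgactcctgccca
TGANTCA was found before Ivl, 116 bases from the start, and before Scel, 36 bases from the start, in both cases as TGACTCA, and before no other member in the table.  It occurs before 6.75% of 32851 starts in the table. CCNNAGGC was absent before Ivl and Scel and present before both Cdsn starts, at 68 and 54 bases, and before 1 of the 2 Tgm1 starts, at 226 bases, against 20.4% of all starts. The letters AACNGGTT, bound by grainyhead factors, were found before none of the 9 member starts and before 1.79% of all. The short letters CACCC, bound by Klf4 and related factors, were found before 7 of the 9 and before 52.0% of all starts. These are matches of letters, and binding was not measured.

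Involucrin, the glutamine-rich rod protein on which envelope assembly begins, was the member with the largest difference. Ivl (ENSMUSG00000049128, chromosome 3, 92570902 to 92573735, minus strand, GRCm38) had Control levels of 32.0, 63.6 and 37.9 FPKM and Znf750 cKO levels of 182, 143 and 130 FPKM. Every Znf750 cKO library was above every Control library, although Control replicate 2 stood well above the other Control libraries. Ivl rose 3.41-fold, from 44.5 ± 16.8 to 152 ± 27.0 FPKM (mean ± SD, n = 3), a log2 change of 1.79 (SE 0.27, 95% interval 1.15 to 2.44, limma adjusted p = 0.022). The adjusted p was 0.058 with the replicate block, and the call was kept in 2 of the 6 fits that leave out a library, those without Control replicate 2 (adjusted p = 0.0041) and without Znf750 cKO replicate 3 (0.046), while the others gave 0.0505 to 0.086.

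Envoplakin and periplakin are plakin proteins that bind each other and tie the envelope to desmosomes and keratin filaments. Evpl (ENSMUSG00000034282, chromosome 11, 116220559 to 116238077, minus strand) was measured at 63.1, 59.7 and 71.9 FPKM in Control and 77.3, 74.1 and 58.4 FPKM in Znf750 cKO, with the lowest and highest values both in Znf750 cKO. Ppl (ENSMUSG00000039457, chromosome 16, 5086291 to 5132421, minus strand) was measured at 128, 113 and 122 FPKM in Control and 180, 126 and 145 FPKM in Znf750 cKO, where replicate 2 fell within the Control range. The Ppl groups did not overlap with median-ratio or upper-quartile scaling, where Znf750 cKO was higher, and overlapped with equal library sums. Neither Evpl nor Ppl passed, with log2 changes of 0.10 for Evpl (95% interval -0.21 to 0.41, limma adjusted p = 0.74) and 0.30 for Ppl (-0.03 to 0.63, adjusted p = 0.28). The interval of Evpl leaves out a change as large as that of Ivl in either direction. Ppl exceeded its partner in each library, with a Ppl to Evpl ratio of 2.02, 1.89 and 1.69 in Control and 2.34, 1.70 and 2.48 in Znf750 cKO, so these ranges overlapped. Of 5 other plakins, each had a log2 change above 0 (median 0.44), also under the 4 other library scalings run, and none passed. The most abundant, the desmosomal plakin Dsp, had 402 ± 43.6 FPKM in Control and 443 ± 71.9 FPKM in Znf750 cKO. Plec, which encodes plectin of hemidesmosomes, had a limma adjusted p of 0.085, and of 0.042 with the replicate block, where 2.86% of all genes passed. An unadjusted p under 0.05 was found for 3 of the 5, against 21.3% of all genes. Groups were higher without overlap for 3, against 8.28%.

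Sciellin, a LIM domain precursor of the envelope, was the member that fell. Scel (ENSMUSG00000022123, chromosome 14, 103513342 to 103612797, plus strand) had Control levels of 45.1, 37.1 and 28.0 FPKM, and Znf750 cKO levels of 22.6, 16.4 and 16.8 FPKM. The groups did not overlap, and the gap between Control replicate 3 and Znf750 cKO replicate 1 was smaller than the spread within Control. The fall from 36.7 ± 8.58 to 18.6 ± 3.45 FPKM had a log2 change of -0.94 (SE 0.19, 95% interval -1.38 to -0.49, limma adjusted p = 0.042, and 0.033 with the replicate block). The call ended under each of 3 other library scalings (adjusted p of 0.054 to 0.067) and in each fit that leaves out a library (0.070 to 0.14) except that without Control replicate 3 (0.033).

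Cornifelin is a small cysteine-rich protein of the envelope. Cnfn (ENSMUSG00000063651, chromosome 7, 25367620 to 25369724, minus strand) was measured at 72.5, 131 and 93.1 FPKM in Control and 136, 110 and 172 FPKM in Znf750 cKO. The single Control library at 131 FPKM, replicate 2, reached into the Znf750 cKO range. Cnfn did not pass, with a log2 change of 0.51 (95% interval -0.09 to 1.10, limma adjusted p = 0.31).

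Cystatin M/E inhibits the lysosomal proteases legumain and cathepsin L and thereby bears on the processing of transglutaminase 3. Cst6 (ENSMUSG00000024846, chromosome 19, 5344705 to 5349574, minus strand) had Control levels of 143, 210 and 149 FPKM and Znf750 cKO levels of 127, 136 and 137 FPKM. The groups did not overlap, but Control replicate 2 alone was far above the rest, and the other Control libraries lay close to the Znf750 cKO libraries. Cst6 did not pass (log2 change -0.31, 95% interval -0.66 to 0.05, limma adjusted p = 0.30), and its groups overlapped with median-ratio scaling. Its targets moved apart without passing. Lgmn, legumain, was at 27.5 ± 6.68 FPKM in Control and 18.7 ± 0.88 FPKM in Znf750 cKO (adjusted p = 0.12), and Ctsl, cathepsin L, at 138 ± 16.2 and 204 ± 27.4 FPKM (adjusted p = 0.064), both without overlap. The Cst6 to Ctsl ratio was 1.10, 1.34 and 1.17 in Control and 0.60, 0.78 and 0.60 in Znf750 cKO, without overlap. The Cst6 to Lgmn ratio was 4.07, 8.57 and 6.53 in Control and 6.52, 7.66 and 7.27 in Znf750 cKO, and overlapped. The balance of inhibitor and target transcripts thus differed by target, and these ratios carry no test. Lgmn is also a gene of macrophages, and the leukocyte markers named above were lower with it, whose part in its difference was not tested. None of the 7 tested genes of this list of cystatins and their targets passed, the most abundant being Cst3 (417 ± 29.3 and 374 ± 25.2 FPKM).

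Corneodesmosin is the glycoprotein of the corneodesmosome, the junction that joins corneocytes. Cdsn (ENSMUSG00000039518, chromosome 17, 35552128 to 35557180, plus strand) had 106, 184 and 101 FPKM in the Control libraries, while those of Znf750 cKO had 72.9, 50.7 and 76.1 FPKM. All Znf750 cKO libraries were lower than all Control libraries, and Control replicate 2 again stood above its group. The difference between 131 ± 46.5 and 66.6 ± 13.8 FPKM was as large as that of Scel on the log2 scale, -0.93, but with a wider error (SE 0.27, 95% interval -1.58 to -0.28) it did not pass (limma adjusted p = 0.12). Its partners and the proteases of shedding did not pass either: of 11 tested, none rose or fell by limma, and the median log2 change was 0.07. An unadjusted p under 0.05 was found for 2 of the 11, against 21.3% of all genes. The most abundant of them was Perp, a desmosomal membrane protein, at 1705 ± 94.1 FPKM in Control and 1838 ± 148 FPKM in Znf750 cKO. The kallikreins that cut corneodesmosin overlapped between groups, with Klk5 at 114 ± 37.8 and 131 ± 15.4 FPKM and Klk7 at 190 ± 57.8 and 214 ± 38.8 FPKM. Set against Cdsn within a library they were apart: the Klk7 to Cdsn ratio was 1.32, 1.37 and 1.74 in Control and 3.15, 3.36 and 3.20 in Znf750 cKO, and the Klk5 to Cdsn ratio 0.76, 0.84 and 1.04 against 2.04, 2.44 and 1.59. Both ratios are divided by Cdsn, whose groups were already apart, so they are not separate from the difference of Cdsn. Cdsn is also made in the inner root sheath of the hair follicle. Of 14 follicle markers, 9 were tested, of which the sheath keratins Krt27 and Krt71 fell, from 6.83 ± 2.55 to 0.58 ± 0.11 and from 6.66 ± 2.92 to 0.53 ± 0.13 FPKM. Of the other listed sheath keratins, Krt25 and Krt28 did not pass and Krt72 and Krt73 were not tested, all with lower means in Znf750 cKO. Tchh (means 14.2 and 80.2 FPKM) and Lhx2 (24.8 and 43.3 FPKM) rose. The list's sums, which include Tchh and Lhx2, were 127 to 156 FPKM in Control and 171 to 238 FPKM in Znf750 cKO. The part of follicle cells in the difference of Cdsn was not tested.

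None of the 3 transglutaminases that crosslink these proteins passed the test. Transglutaminase 1 is anchored in the membrane and builds the first scaffold and its lipid attachment. Tgm1 (ENSMUSG00000022218, chromosome 14, 55700009 to 55713926, minus strand) was measured at 35.6, 48.2 and 43.1 FPKM in Control and 44.0, 38.8 and 41.0 FPKM in Znf750 cKO. All Znf750 cKO libraries lay inside the Control range, and the log2 change of -0.03 had a 95% interval of -0.32 to 0.27 (limma adjusted p = 0.94). Its annotated exons share 5.76% of their bases with the antisense gene Gm49067, and whether counting used strand is unknown from the labels. Gm49067 was listed at 0 in each Control library and at 0, 0.72 and 0.50 FPKM in Znf750 cKO.

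Transglutaminase 3 is a soluble enzyme, cut to its active form, of the upper epidermis and the hair follicle. Tgm3 (ENSMUSG00000027401, chromosome 2, 130012349 to 130050399, plus strand) was measured at 15.3, 24.9 and 18.7 FPKM in Control and 18.8, 22.1 and 11.1 FPKM in Znf750 cKO. The groups overlapped broadly, and the low library was Znf750 cKO replicate 3. The log2 change was -0.20 (95% interval -0.86 to 0.46, limma adjusted p = 0.75), an interval that admits more change in either direction than that of Tgm1.

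Transglutaminase 5 acts in the outer epidermis, and its inherited loss in people leads to peeling of the skin. Tgm5 (ENSMUSG00000053675, chromosome 2, 121046111 to 121085841, minus strand) had Control levels of 15.0, 16.2 and 11.7 FPKM and Znf750 cKO levels of 11.5, 9.62 and 9.05 FPKM. The groups were apart only by the small step between 11.7 and 11.5 FPKM, and overlapped under each of 3 other library scalings. Tgm5 did not pass (log2 change -0.46, 95% interval -0.81 to -0.11, limma adjusted p = 0.13). Of 7 other genes listed beside these, not all of them transglutaminases, Tgm4 alone was tested. It did not pass, at 1.28 ± 0.08 FPKM in Control and 1.93 ± 0.16 FPKM in Znf750 cKO (limma adjusted p = 0.24). Tgm2, Tgm6, Tgm7, F13a1, F13b and Epb42 were below the limit for testing. Tgm7, next to Tgm5 on chromosome 2, was at 2.58, 2.15 and 0.94 FPKM in Control and 0.98, 0.50 and 0.65 FPKM in Znf750 cKO. Tgm6, next to Tgm3, was at 0.32, 0.15 and 0.05 FPKM in Control and was listed at 0 in Znf750 cKO.

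Since FPKM is per length, the members can be ranked within a group. In Control the order by mean level was Cst6, Cdsn, Ppl, Cnfn, Evpl, Ivl, Tgm1, Scel, Tgm3 and Tgm5, and neighbours in this order overlapped except at the steps from Cnfn to Evpl and from Scel to Tgm3. In Znf750 cKO the order was Ivl, Ppl, Cnfn, Cst6, Evpl, Cdsn, Tgm1, Scel, Tgm3 and Tgm5, with steps free of overlap from Cst6 to Evpl, from Cdsn to Tgm1 and from Tgm1 to Scel. Ivl thus went from the sixth place to the first, level with Ppl within their spread, and Cdsn from the second to the sixth, while the last 4 places were held by the same genes.

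The sum of the 7 scaffold and associated genes was 664 ± 117 FPKM in Control and 729 ± 71.2 FPKM in Znf750 cKO. Within this sum Ivl made up 5.42%, 7.97% and 6.29% in Control and 22.8%, 21.8% and 17.7% in Znf750 cKO. Cdsn made up 18.0%, 23.1% and 16.8% in Control and 9.14%, 7.73% and 10.4% in Znf750 cKO, and Scel went from 5.65% ± 1.74 to 2.54% ± 0.27 (SD, n = 3). Cst6 was at 25.1% ± 1.09 and 18.4% ± 2.40. The shares of these genes did not overlap between groups, those of Evpl and Ppl did, and that of Cnfn was apart only by the step between 16.4% and 16.7%. A share falls when another gene of the sum rises, so the lower shares are not separate from the higher share of Ivl. Among the transglutaminases, Tgm1 supplied 53.2% ± 3.23 of the summed FPKM of Tgm1 to Tgm7 in Control and 58.2% ± 5.50 in Znf750 cKO. Tgm3 supplied 24.4% ± 2.49 and 24.0% ± 6.49, and Tgm5 18.0% ± 3.04 and 14.1% ± 0.82. Of these 3 members, Tgm5 alone did not overlap. The small shares of Tgm4 (means 1.63% and 2.73%) and Tgm6 (0.23% and 0%) did not overlap either. These shares are descriptions and carry no test.

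**Figure D3:**
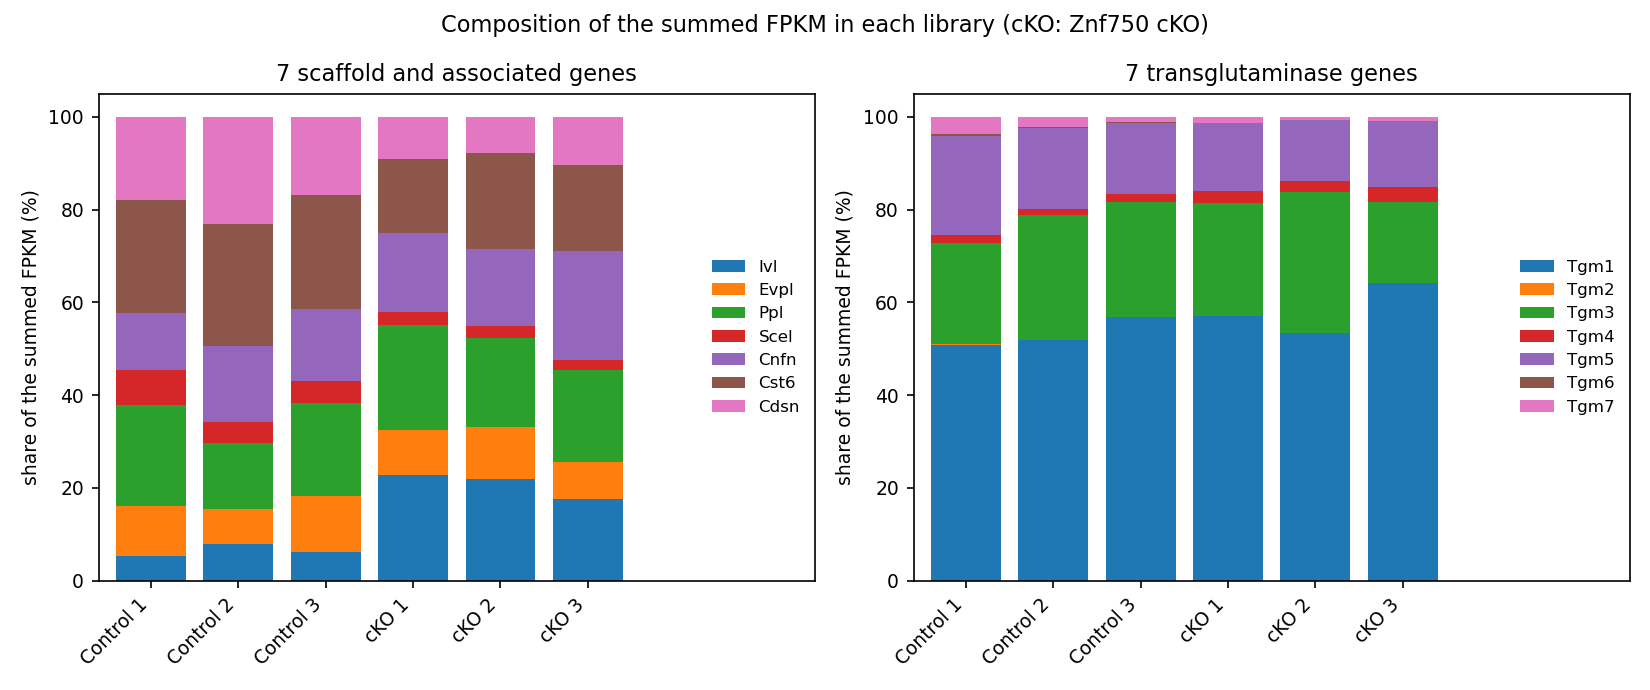
Share (%) of each gene in the summed FPKM of the 7 scaffold and associated genes (left) and of Tgm1 to Tgm7 (right), stacked to 100% for each of the 6 libraries. The Ivl segment is 5.42% to 7.97% in Control and 17.7% to 22.8% in Znf750 cKO, while Tgm1 is the largest segment of the right panel in each library.

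Control replicate 2 held the highest Control level of 7 of the 10 members, all but Evpl, Ppl and Scel, and also of Lor, the granular layer gene for loricrin and the major envelope protein, for which Control held 2503, 4143 and 2528 FPKM and Znf750 cKO 2704, 2134 and 2618 FPKM. Each member was therefore also set against Lor of the same library, a choice made after these values were seen. Per 1000 FPKM of Lor, Ivl was at 12.8, 15.4 and 15.0 in Control and 67.3, 67.1 and 49.7 in Znf750 cKO, 4.27-fold higher. Cdsn was at 42.4, 44.5 and 40.1 in Control and 27.0, 23.8 and 29.1 in Znf750 cKO. On this scale the Control coefficient of variation was lower than for FPKM in 5 members and higher in the other 5. It went from 37.8% to 9.74% for Ivl and from 35.6% to 5.11% for Cdsn, and was also lower for Cnfn, Cst6 and Tgm3. It went from 9.72% to 32.4% for Evpl, from 6.18% to 30.8% for Ppl and from 23.3% to 37.4% for Scel, and was also higher for Tgm1 and Tgm5. Scel was at 18.0, 8.96 and 11.1 in Control and 8.34, 7.66 and 6.42 in Znf750 cKO, where the gap between groups nearly closed. Ppl and Cnfn were higher without overlap on this scale (27.2 to 51.0 and 55.3 to 66.7 for Ppl, 29.0 to 36.8 and 50.2 to 65.6 for Cnfn), and Evpl, Cst6 and the 3 transglutaminases overlapped. For the 5 ratios that did not overlap the exact two-sided permutation test gave p = 0.10, the smallest that 3 against 3 libraries allow, and 0.20 after adjustment over the 10 ratios, so this comparison cannot pass. With all genes rescaled to an equal Lor level, which moved the median log2 change of all genes from -0.08 to 0.15, the log2 change was 2.06 (SE 0.34) for Ivl, -0.68 (SE 0.34) for Scel and -0.67 (SE 0.34) for Cdsn. The SE of Ivl was thus larger than the 0.27 without this scaling, and since the spread of Lor itself enters each gene, no p is given from it.

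**Figure D4:**
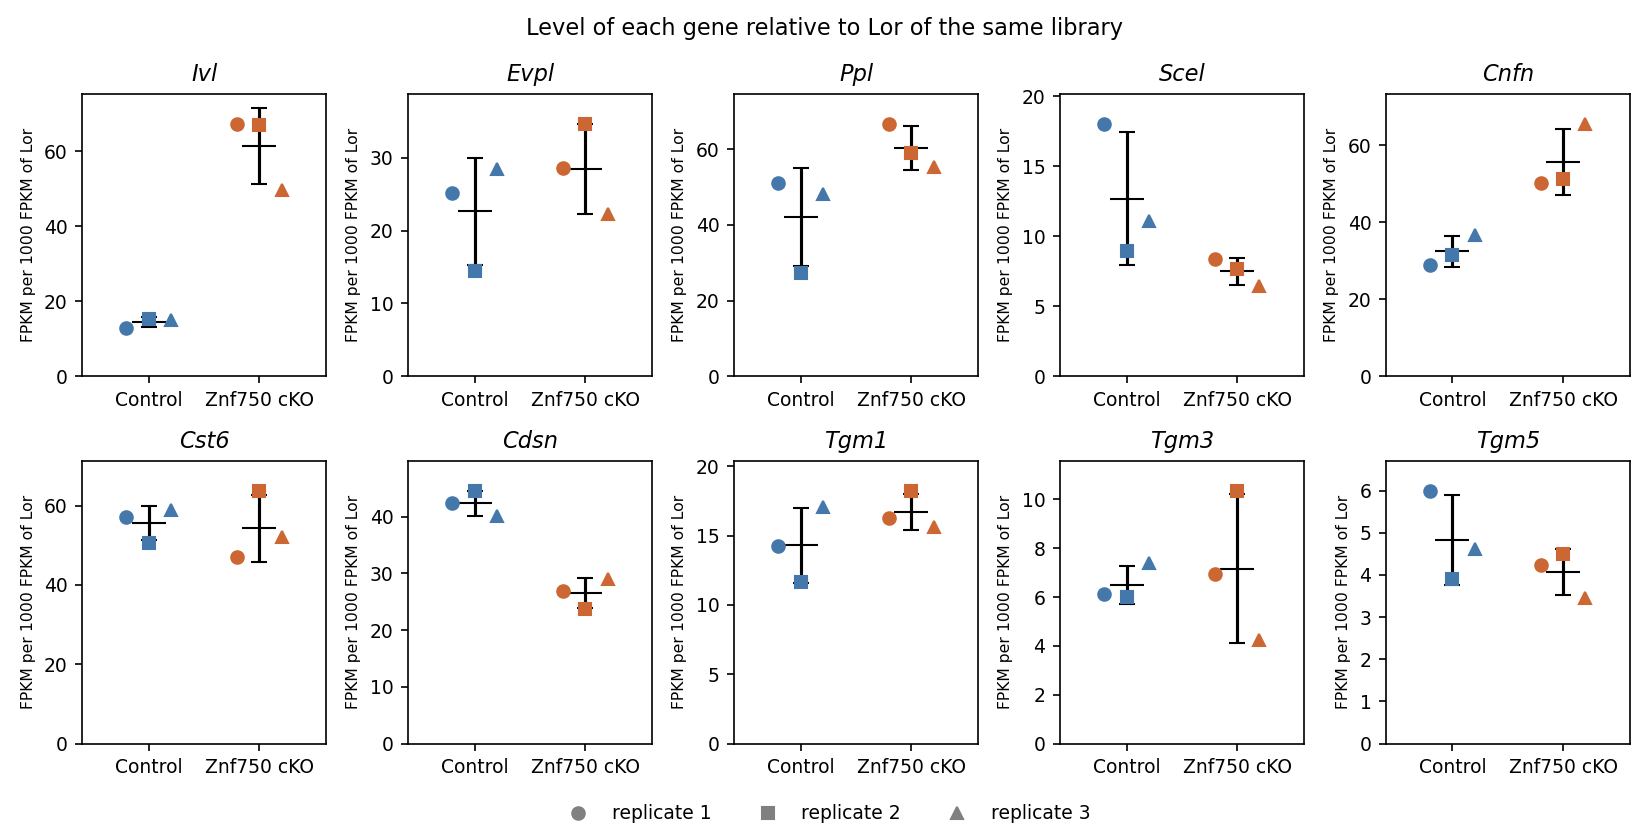
FPKM of each gene per 1000 FPKM of Lor in the same library (linear axes from 0), by group, with replicate number as the marker and the mean and SD of 3 as bars. Ivl at 12.8 to 15.4 and Cdsn at 40.1 to 44.5 are tight in Control and apart from Znf750 cKO, and Scel nearly touches between groups.

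Ivl lies in the epidermal differentiation complex, the cluster that also holds the late envelope (Lce), small proline-rich (Sprr) and loricrin genes. Most log2 changes of its neighbours differed in sign by side, which was not tested. Of 37 other tested protein-coding genes with starts within 500 kb, 2 rose and 1 fell, against 1.11% and 3.10% of all genes tested. The median log2 change of all genes was -0.08. Of the 23 that start behind Ivl, on the side of the Lce genes, 20 had log2 changes below 0 (median -0.86 over the 23), and none passed. Of the 14 that lie ahead of Ivl in the direction of its transcription, on the side of the Sprr genes, 10 had log2 changes above 0 (median 0.20 over the 14). Those that passed were Sprr1b (2.51) and Sprr2d (1.63), upwards, and Sprr4 (-2.95), downwards. Sprr1a (-1.36), Prr9 (-1.36) and Lor (-0.26), on the same side, were below 0 without passing. These counts on each side were the same under the 4 other library scalings run. Sprr4 starts 73.2 kb from Ivl and was at 12.2, 7.33 and 3.19 FPKM in Control and listed at 0 in Znf750 cKO. Of the nearest genes to Ivl on either side, 2310046K23Rik was at 2.90 ± 1.61 FPKM in Control and 7.07 ± 4.31 FPKM in Znf750 cKO (log2 change 1.02, SE 0.48, limma adjusted p = 0.30), the same sign as Ivl without passing, and Smcp, at 0.22 FPKM or less in each library, was not tested. The Lce and Sprr genes are near-identical families whose reads can be divided between members. Around the other 9 members, none of the tested genes among the nearest protein-coding genes on each side passed. Psors1c2, beside Cdsn, was at 4.39 and 2.79 FPKM (log2 change -0.52, limma adjusted p = 0.17), and Rabggta, beside Tgm1, at 19.0 and 18.4 FPKM.

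**Figure D5:**
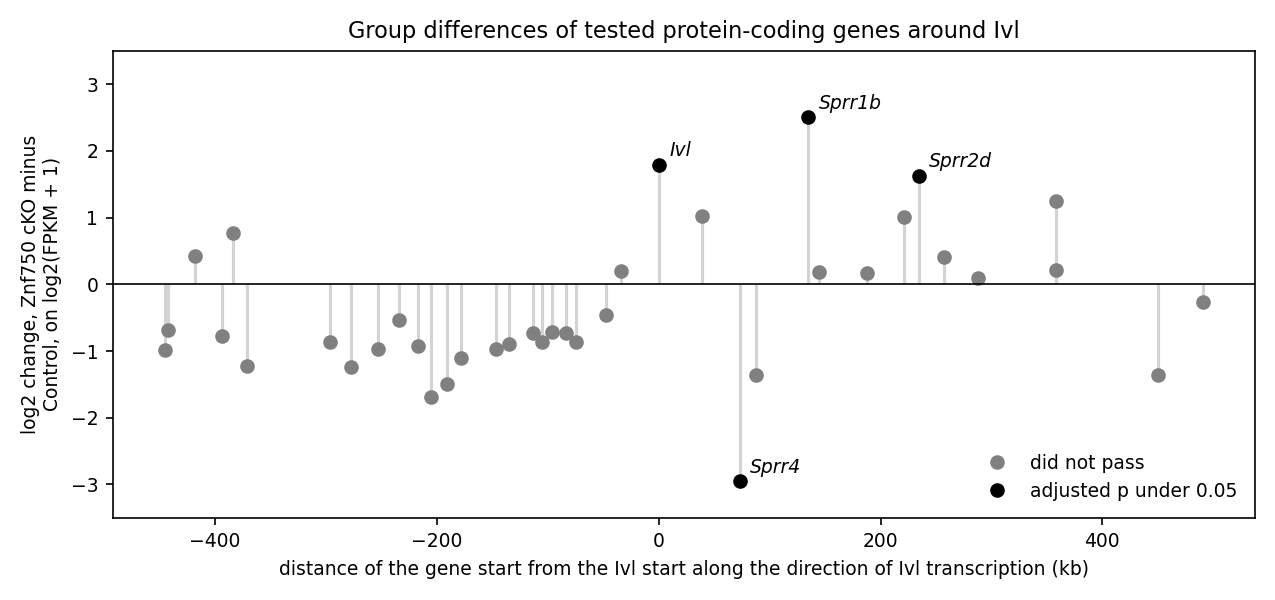
Log2 change (Znf750 cKO minus Control, on log2(FPKM + 1)) of tested protein-coding genes against the distance (kb) of their start from that of Ivl, positive in the direction of Ivl transcription. Black points have an adjusted p under 0.05; 20 of 23 genes to the left of Ivl lie below 0 and 10 of 14 to the right lie above it.

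Other envelope genes went both ways. Of 8 major envelope and fused S100 proteins, Tchh, trichohyalin, rose by 2.33 on the log2 scale (limma adjusted p = 0.027), with means of 14.2 ± 1.93 FPKM in Control and 80.2 ± 33.4 FPKM in Znf750 cKO. Crnn, cornulin, fell by 0.98 on that scale (adjusted p = 0.035), with means of 1.52 ± 0.37 and 0.27 ± 0.09 FPKM, and had an adjusted p of 0.061 under the replicate block. With a library left out, Tchh passed only without Znf750 cKO replicate 3 (0.00104, otherwise 0.0597 to 0.103) and Crnn in no case (0.0539 to 0.128). The other 6 did not pass, and the median was -0.55. An unadjusted p under 0.05 was found for 7 of the 8, against 21.3% of all genes, and groups did not overlap for 5, against 28.0%. Among those that did not pass, Flg, the gene of filaggrin, was at 1656 and 903 FPKM without overlap (log2 change -0.83, adjusted p = 0.10), Rptn and Hrnr had log2 changes of 0.88 and 0.49, and Lor, the most abundant, of -0.26 (adjusted p = 0.53). Of 8 minor substrates of transglutaminases, Serpinb2, a protease inhibitor crosslinked into the envelope, was at 64.1, 68.7 and 77.1 FPKM in Control against 163, 145 and 128 FPKM in Znf750 cKO and rose by 1.04 on the log2 scale (adjusted p = 0.0063). It thus resembled Ivl in direction with a much smaller spread in Control. The other 7 did not pass, and the most abundant, the cystatin Stfa3, was at 7225 ± 2331 and 12183 ± 2118 FPKM (adjusted p = 0.15).

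Of 12 genes that make or attach the lipid envelope, which is bound to involucrin and its partners, Aloxe3, a lipoxygenase of the attachment pathway, fell by 0.93 on the log2 scale (limma adjusted p = 0.043), and 11 did not pass. Its means were 37.9 ± 6.49 FPKM in Control and 19.5 ± 4.42 FPKM in Znf750 cKO. The call ended with the replicate block (adjusted p = 0.082) and in each fit that leaves out a library (0.0563 to 0.15) except that without Control replicate 3 (0.047). The elongase Elovl4, the most abundant, was at 122 ± 14.8 and 112 ± 14.5 FPKM. Of 9 tested genes of calcium handling, which sets the activity of transglutaminases, none passed by limma. An unadjusted p under 0.05 was found for 5 of the 9, against 21.3% of all genes. The protease Capn1 was at 73.3 ± 5.87 and 56.7 ± 4.02 FPKM without overlap (limma adjusted p = 0.10).

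Of 25 transcription factors and cofactors linked to envelope genes, the targeted Zfp750 fell, Grhl3 and Maf rose and 22 did not pass. Of all genes tested, 1.11% rose and 3.10% fell. An unadjusted p under 0.05 by limma was found for 8 of the 25, Zfp750 included, against 21.3% of all genes. Groups were higher without overlap for 7, against 8.28% of all genes, and lower for 2, against 19.7%. Grhl3, a grainyhead factor of barrier formation, was at 18.6, 19.8 and 20.1 FPKM in Control and 40.6, 35.3 and 32.9 FPKM in Znf750 cKO and rose by 0.86 on the log2 scale (limma adjusted p = 0.0087). Maf passed in each fit that leaves out a library but that without Znf750 cKO replicate 1 (0.0591). The Control range of Grhl3 was narrow, without the high replicate 2 seen for Ivl. Klf4, a factor of late differentiation, was at 149, 159 and 199 FPKM in Control and 255, 240 and 246 FPKM in Znf750 cKO, without overlap, and its adjusted p of 0.054 did not pass. Fos, a subunit of AP-1, had the highest mean over the 6 libraries, although in Control its mean of 139 FPKM was below the 169 FPKM of Klf4. It was at 78.1, 92.0 and 247 FPKM in Control and 269, 189 and 558 FPKM in Znf750 cKO (limma adjusted p = 0.32, and 0.035 with the replicate block, which made it the third gene of the list to rise), with the highest value of each group in replicate 3, unlike Ivl, whose lowest Znf750 cKO value was in that replicate. Klf4 was named after its values were seen.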

How the data were processed

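Poly(A) RNA of the 6 epidermal suspensions had been sequenced as 100-nucleotide single reads, per the labels' protocols. The files hold 1 FPKM value per Ensembl gene and library, as the authors deposited them. The submitters' processing notes name the aligner STAR 2.5.2a and the quantifier RSEM 1.2.28, besides tools for trimming and quality control, and the builds GRCm38 and mm10, with no role or order. Annotation release, filters and strand setting: not given in the sources used here. RSEM divides reads shared by similar genes.

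Symbols matched 55141 of 55487 identifiers, and coordinates are those of GENCODE M21 (GRCm38). Only genes that reached 1 FPKM in 3 or more libraries entered limma 3.58.1 (R 4.3.3), run on log2(FPKM + 1) with a trend, robust variances and group as the only term. Fold changes on that scale understate those of low genes. The members and lists were chosen with earlier results of these data known. Named genes are all members, Zfp750 and, from each of 9 pathway lists, the most abundant gene and the called gene with the smallest p in each direction; other genes were named after their values were seen.

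Depth was estimated from genes with 1 transcript, by a search from 12 to 60 megareads for the largest share of low values within 0.1 read of a whole number. That share was 69.6% to 77.7%. Chance gives 20% at a depth fixed beforehand, and the share at a searched depth is not directly comparable with it. The depth entered no test. In each library pair at most 0.277% of genes had identical values. After group means were removed, libraries with the same replicate number correlated at 0.31, 0.17 and 0.48 (numbers 1, 2 and 3), each over 0.1. Of the unmatched pairs, Control 1 with Znf750 cKO 2 correlated at 0.24, more than the matched pair of number 2. The other unmatched pairs lay between -0.39 and -0.04. The values thus do not settle whether the number is a pair, and the labels do not say what it stands for. A fit with the number as a replicate block was therefore run as an alternative to the main fit. The fits were tested on simulated data, and plots used matplotlib 3.10.9.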

Additional observations from a re-analysis of the deposited data

How the results depend on the processing

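Over 17 alternative settings, of which the scaling to Lor was chosen after these values were seen, Ivl kept a positive and Scel, Cdsn, Cst6 and Tgm5 a negative log2 change, and Cnfn, Ppl and Evpl a positive one. Ivl passed in 10 (largest adjusted p 0.087 over the 17). The scaling to Lor was among the 10, but its p is not taken as support, since the spread of Lor enters each gene. Scel passed in 6 (0.032 to 0.17 apart from the scaling to Lor), and the other 8 members in none. Ivl had an adjusted p of 0.068 (log2 change 1.79) without a filter on low values, 0.058 (1.79) with the replicate block and 0.087 (1.82) without the third replicates, and 1.59 to 2.08 as its log2 change with a library left out. Scel stood at -0.93, -0.83 and -0.92 with equal library sums, median ratios and upper quartiles, at -0.94 without a filter (0.17) and without robust variances (0.056), at -0.68 scaled to Lor, and at -1.11 to -0.78 with a library left out. In each of these settings the count of members that rose or fell was correspondingly 0 in place of 1 (0 to 1 with a library left out). Tgm1, near 0 throughout, turned to 0.081 with median ratios, 0.23 scaled to Lor, 0.071 without Control replicate 2 and 0.016 without Znf750 cKO replicate 2 (-0.14 to 0.071 with a library left out). Tgm3 turned to 0.055 without the third replicates, 0.054 scaled to Lor and 0.075 without Znf750 cKO replicate 3 (-0.39 to 0.075). Of all genes, 152 rose and 425 fell, against 248 and 265 with median ratios, 31 and 54 without a filter, 136 and 256 with the replicate block, 160 and 212 scaled to Lor, 95 and 295 without the third replicates, and 34 to 110 and 66 to 259 with a library left out. The cause was not tested, apart from the fewer libraries or the more genes tested that the settings themselves bring. The count of members whose groups do not overlap was 4 to 7. With the replicate block no other member changed its call. The effect of read depth on these results was not tested.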
